A study of Mus musculus with 4 samples.

Results

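The genes described here are the ligands, receptors and regulators of Wnt signalling on an expression array of mouse mammary epithelial cells. They are the genes named Wnt, Fzd, Sfrp, Dkk or Rspo with a family number, together with Lrp5, Lrp6, Axin2, Lef1, Tcf7l1, Tcf7l2, Wif1, Rnf43 and Znrf3, taken from probe sets that carry exactly 1 gene symbol in the platform annotation. The choice used names and no measured difference. It gave 53 probe sets and 50 genes of the 22180 genes with a symbol of their own on the array, and the brightest probe set by mean over all arrays stood for each gene.

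Cells were isolated from the inguinal mammary glands of mice aged 4 weeks, all congenic on the FVB/NJ strain. MMTV-Cre mice gave 2 samples and their wild-type littermates gave the other 2. In this transgene Cre recombinase is driven by the viral long terminal repeat of MMTV, the mouse mammary tumour virus. The labels give no loxP-flanked allele, no treatment and no transgenic line, and they do not say how many mice made up a sample. The transgene's own transcript was not analysed here, so its level in each sample is not known. Values are log2 expression per probe set after RMA, and 1 log2 unit is a 2-fold change.

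Wnt proteins are secreted lipid-modified signals that bind frizzled receptors. With the co-receptors Lrp5 and Lrp6 they stabilise beta-catenin, which acts on DNA with LEF and TCF factors. Other Wnts act through receptors such as Ror2 on cell polarity and movement. In the mammary gland, Wnt signalling takes part in placode formation, in branching and in the maintenance of basal stem cells, and Wnt4 acts downstream of progesterone. Wnt1 and Wnt3 were found as sites where mouse mammary tumour virus inserts in mammary tumours.

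The labelled cell type was checked first. All 9 general epithelial markers, Epcam, Cdh1, keratins and claudins, lay well above the median probe set in every array, between 6.24 and 10.40. Markers of fibroblasts (8 of 8 found) and of endothelial cells (6 of 6) were also above it in every array, so transcripts of other cells were present. Wild-type replicate 1 stood apart. There, 94 genes exceeded every other array by 1 log2 unit or more, against 2 to 3 such genes in each of the others, and its 7 T cell markers averaged 5.90 against 2.91 to 3.09 elsewhere. Among the Wnt genes, 1 was such a gene, Lef1. In these bulk samples, fewer cells of a type and less RNA per cell cannot be told apart.

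The comparison asks whether Wnt genes differ between cells of MMTV-Cre glands and of wild-type glands. Genes whose mean reached 2.84, which is the median probe set and is called the dim limit below, were tested with limma and Benjamini-Hochberg adjustment over all 11668 such genes. Of the 50 Wnt genes 26 (52%) passed this filter, close to the 52.6% of all genes. None of the 26 passed an adjusted p under 0.05 (limma, smallest adjusted p = 0.964), and the percentage called among all genes was 0. At an unadjusted p under 0.05 there was 1 Wnt gene, Fzd7, higher in MMTV-Cre, beside 4.32% of all genes (2.13% higher and 2.19% lower). The groups did not overlap in 10 of the 26 (38.5%), 7 higher and 3 lower in MMTV-Cre, beside 33.1% of all genes tested (16.7% higher and 16.5% lower). The difference was above 0 in 16 of the 26 and in 49.0% of all genes tested. The median difference of the 26, MMTV-Cre minus wild-type, was 0.06 log2 units beside −0.00 over all genes tested, and it was −0.050 without MMTV-Cre replicate 2.

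For each gene, the 95% interval gives the size of a change in array value that these data leave room for. How far array values near the dim limit follow transcript amounts was not tested. A stricter limit of 4.56 was passed by 5 of the 26 genes. For 26 of the 26 genes the whole interval lay within a 2-fold change in either direction, and for 18 it lay within 1.5-fold. Over all 11668 genes tested these counts were 11229 and 8295. The widest interval reached 0.61 log2 units to each side. The 2 replicates of a group differed by a median of 0.21 log2 units in MMTV-Cre and 0.16 in wild-type over the Wnt genes, and the group means differed by a median size of 0.11, beside 0.10 over all genes tested. With 2 arrays per group, an exact permutation p-value for 1 gene (two-sided) cannot go under 0.333, and such a test can call none.

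**Figure D1:**
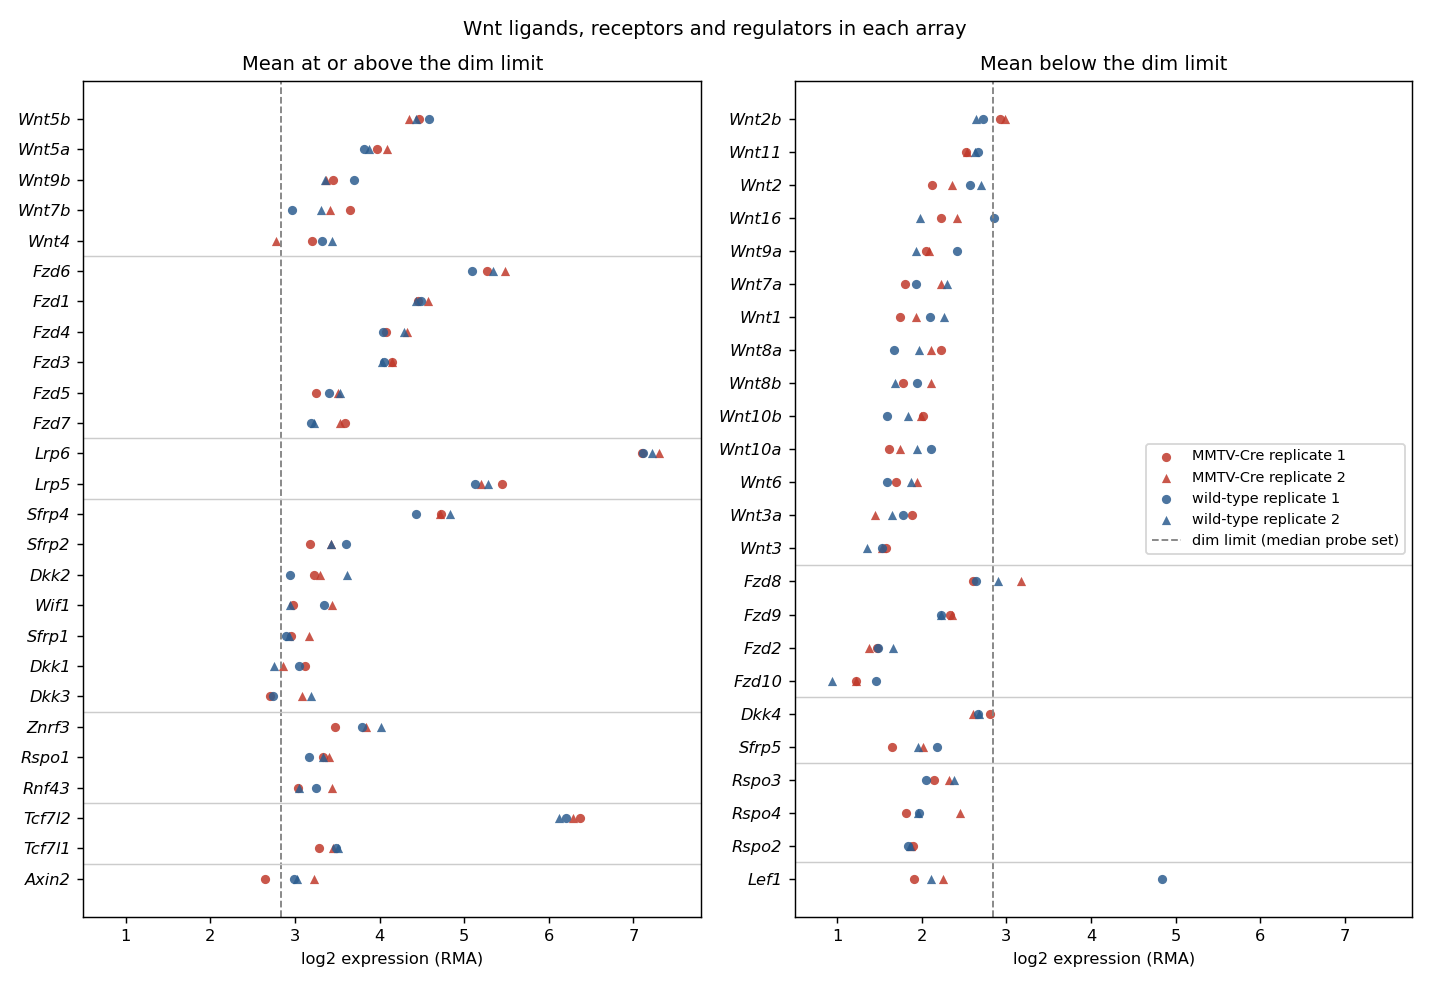
Log2 expression (RMA) of each of the 50 Wnt genes in the 4 arrays, with red points for MMTV-Cre, blue points for wild-type, circles for replicate 1 and triangles for replicate 2. Grey lines separate the roles, and the dashed line is the dim limit of 2.84. Most genes have their 4 points close together, and Lef1 has 1 point, wild-type replicate 1, far to the right at 4.84.

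Promoter sequences are shown for the 2 genes with the clearest patterns below, Fzd7 and Lef1. Also shown are those of the 2 genes above the dim limit with a window that holds the TCF/LEF core searched. They cover the 250 bases before the transcription start in RefSeq, build GRCm38.p6, written 5′ to 3′ along the gene. RefSeq promoters were matched by gene identifier for 33 of the 50 genes, with 41 start sites. The core searched was ATCAAAG or TTCAAAG on either strand, letters that TCF and LEF proteins are known to bind. It was present in 3 of these 41 windows (7.32%), beside 7.48% of 32851 RefSeq windows of the same length. The 3 were windows of Wnt5b, Dkk1 and Wnt11. Capitals mark the 2 forms searched, and the windows of Fzd7 and Lef1 hold neither. Other forms were not searched and are not marked, such as AACAAAG in the Fzd7 window and CTTTGTT, its reverse complement, in the Dkk1 window. Fzd7 lies at chr1:59481897-59482146, plus strand. The Lef1 window, for the most upstream of its start sites, is chr3:131110047-131110296, plus strand. The Wnt5b window is for the most downstream of its 3 start sites, and the windows of the others hold no core. It is chr6:119449387-119449636, minus strand, with the core starting 71 bases before the start site. The Dkk1 window is chr19:30549497-30549746, minus strand, with the core 117 bases before it. A match describes the letters only and says nothing of binding.
Fzd7: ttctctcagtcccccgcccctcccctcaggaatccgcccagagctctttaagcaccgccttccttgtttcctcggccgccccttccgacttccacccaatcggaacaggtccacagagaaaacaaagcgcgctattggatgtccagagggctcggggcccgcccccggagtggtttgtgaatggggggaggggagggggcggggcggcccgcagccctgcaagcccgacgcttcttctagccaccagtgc
Lef1: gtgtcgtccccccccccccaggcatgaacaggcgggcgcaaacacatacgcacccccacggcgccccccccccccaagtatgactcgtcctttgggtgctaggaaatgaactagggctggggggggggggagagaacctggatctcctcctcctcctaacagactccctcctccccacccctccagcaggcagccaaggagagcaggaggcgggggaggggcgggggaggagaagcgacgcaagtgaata
Wnt5b: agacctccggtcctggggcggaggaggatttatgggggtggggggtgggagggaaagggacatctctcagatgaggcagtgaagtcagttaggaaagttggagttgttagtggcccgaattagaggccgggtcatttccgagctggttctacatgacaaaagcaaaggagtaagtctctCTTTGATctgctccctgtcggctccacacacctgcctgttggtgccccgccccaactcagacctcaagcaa
Dkk1: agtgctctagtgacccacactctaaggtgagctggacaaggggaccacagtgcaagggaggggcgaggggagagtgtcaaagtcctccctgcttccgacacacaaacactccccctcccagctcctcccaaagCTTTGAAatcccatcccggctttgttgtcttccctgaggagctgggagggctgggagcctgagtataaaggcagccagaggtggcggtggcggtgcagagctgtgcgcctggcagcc

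Among the 19 Wnt ligands, 5 passed the filter, Wnt4, Wnt5a, Wnt5b, Wnt7b and Wnt9b. That is 26.3%, where the figure for all genes was 52.6%. None of the 5 passed the test. Wnt4, the ligand that mediates progesterone-driven branching, measured 3.21 and 2.77 with the transgene, and 3.32 and 3.44 in wild-type. Both MMTV-Cre arrays were the lower, MMTV-Cre replicate 2 most, and the value in that array was below the dim limit of 2.84. The log2 difference was −0.39 (95% interval −0.84 to 0.06, adjusted p = 0.964), a fold of 0.76, and it was −0.18 without MMTV-Cre replicate 2 and −0.61 without MMTV-Cre replicate 1.

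Wnt7b, a ligand made by luminal cells of the ducts, had the opposite order. It measured 3.66 and 3.41 with the transgene, and 2.97 and 3.31 in wild-type. The groups did not overlap, but the nearest arrays of the groups were closer to each other than the 2 wild-type arrays were. The difference was 0.40 (−0.04 to 0.83, adjusted p = 0.964). Leaving out wild-type replicate 1 made it 0.23.

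Wnt5a and Wnt5b are ligands that act mainly without beta-catenin. Wnt5a measured 3.97 and 4.09 with the transgene, and 3.81 and 3.87 in wild-type, a difference of 0.19 (−0.10 to 0.48). Wnt5b stood at 4.46 and 4.35 against 4.58 and 4.43, a difference of −0.10 (−0.42 to 0.21). Wnt5a was thus higher in both MMTV-Cre arrays, while for Wnt5b the groups overlapped. Wnt9b measured 3.45 and 3.37 with the transgene, and 3.70 and 3.36 in wild-type, with overlapping groups.

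The remaining 14 ligands had means below the dim limit, with single values from 1.35 to 2.99. Wnt1 measured 1.74 and 1.93 with the transgene, and 2.10 and 2.26 in wild-type. Wnt3 stood at 1.58 and 1.53 against 1.53 and 1.35. Both of these insertion-site genes of the virus therefore lay in the dim range in the MMTV-Cre arrays as in the others. Wnt10b, a ligand of the embryonic mammary line, stood at 2.01 and 1.99 against 1.59 and 1.84. In the genome 8 of the ligands lie in pairs with no other coding gene between them, Wnt1 with Wnt10b, Wnt3 with Wnt9b, Wnt3a with Wnt9a and Wnt6 with Wnt10a. Of these 8 genes Wnt9b alone was above the dim limit.

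A fit with no filter on dim genes gave values for the genes below the limit as well. By it 3 of the 24 Wnt genes there had an unadjusted p under 0.05, beside 4.94% of the 10512 genes below the limit (2.49% lower in MMTV-Cre). They were the ligands Wnt1, Wnt2 and Wnt10a, named after their values were seen, and all 3 were lower in both MMTV-Cre arrays. Their differences were −0.35 (−0.69 to −0.01), −0.39 (−0.74 to −0.04) and −0.35 (−0.68 to −0.02). Their adjusted p by limma was 0.963 each. The groups did not overlap in 10 of the 24 genes, 5 higher and 5 lower in MMTV-Cre, where 32.8% of all genes below the limit were so.

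Of the 10 frizzled receptors, which bind Wnt ligands at the cell surface, 6 passed the filter and none passed the test. Fzd7, a receptor known from mammary stem cells, measured 3.59 and 3.53 with the transgene, and 3.19 and 3.22 in wild-type. The arrays of each group lay close together and the groups did not overlap. The difference was 0.36 (0.08 to 0.63), a fold of 1.28 with an interval from 1.06 to 1.55. Its unadjusted p was 0.0206 and its adjusted p by limma was 0.964. Without any 1 array the difference stayed between 0.33 and 0.39, with 0.34 when wild-type replicate 1 was left out.

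The other frizzled genes above the limit differed less. Fzd3, a receptor of planar polarity, measured 4.14 and 4.14 with the transgene, and 4.05 and 4.03 in wild-type, a difference of 0.11 (−0.16 to 0.38). Fzd6, also known from planar polarity, stood at 5.27 and 5.48 against 5.09 and 5.35, a difference of 0.15 (−0.23 to 0.53), or 0.027 without wild-type replicate 1. The groups of Fzd3 did not overlap and those of Fzd6 did. Fzd5 measured 3.24 and 3.51 with the transgene, and 3.41 and 3.53 in wild-type, a difference of −0.09 (−0.45 to 0.27). Fzd1 stood at 4.46 and 4.58 against 4.49 and 4.43, and Fzd4, a receptor of blood vessels among other tissues, at 4.08 and 4.33 against 4.04 and 4.29. For these 3 genes the arrays of the groups were intermixed. Fzd2, Fzd8, Fzd9 and Fzd10 lay below the limit on average, and Fzd8 reached 3.17 in MMTV-Cre replicate 2.

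**Figure D2:**
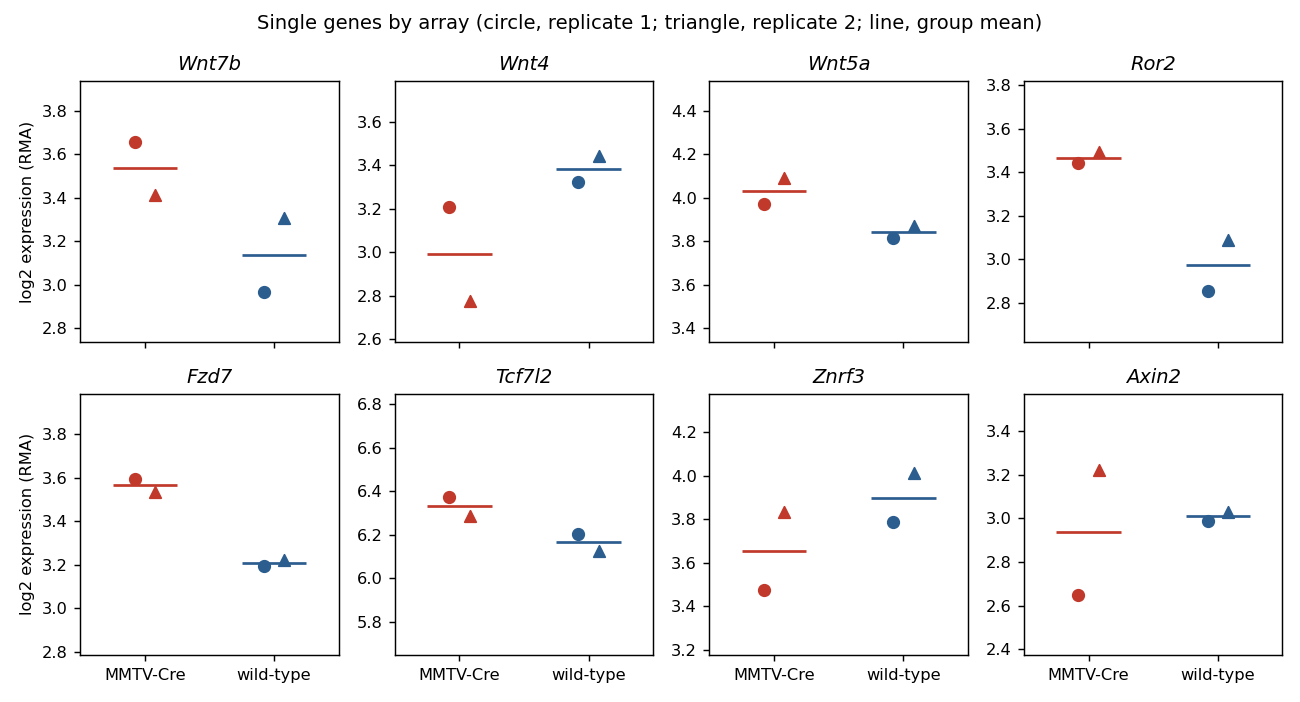
Log2 expression (RMA) of 8 genes by group, each panel spanning the same number of log2 units, with circles for replicate 1, triangles for replicate 2 and lines for group means. The panels of Wnt7b, Wnt5a, Ror2, Fzd7 and Tcf7l2 show both MMTV-Cre arrays above both wild-type arrays, and that of Wnt4 shows both below. The panel of Axin2 shows MMTV-Cre replicates at 2.65 and 3.22 on either side of wild-type.

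The co-receptors Lrp5 and Lrp6 join frizzled proteins to start the beta-catenin branch. Lrp6 measured 7.11 and 7.31 with the transgene, and 7.11 and 7.22 in wild-type, a difference of 0.04 (−0.28 to 0.37). Lrp5 stood at 5.45 and 5.19 against 5.12 and 5.28, a difference of 0.12 (−0.24 to 0.48). In both genes the groups overlapped. The other probe set of Lrp6 differed by −0.086, with the opposite sign.

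Of the 9 secreted antagonists 7 passed the filter, and none passed the test. Sfrp proteins and Wif1 bind Wnt ligands, while Dkk1 and Dkk2 bind the Lrp co-receptors. Sfrp1 measured 2.96 and 3.17 with the transgene, and 2.89 and 2.93 in wild-type, a difference of 0.15 (−0.17 to 0.47). Sfrp2 measured 3.18 and 3.43 with the transgene, and 3.61 and 3.43 in wild-type, a difference of −0.21 (−0.58 to 0.15). The groups of both were apart, those of Sfrp2 by less than the rounding of these values. The second Sfrp2 probe set, with a mean of 2.73, differed by −0.094 and its groups overlapped. Sfrp4 stood at 4.72 and 4.71 against 4.44 and 4.83, a difference of 0.09 (−0.33 to 0.50).

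The Dkk genes and Wif1 varied more between replicates than between groups. Dkk1 measured 3.12 and 2.86 with the transgene, and 3.05 and 2.75 in wild-type, a difference of 0.09 (−0.33 to 0.51). Dkk2 stood at 3.22 and 3.30 against 2.94 and 3.62. Both had overlapping groups, and the 2 wild-type arrays of Dkk2 enclosed the MMTV-Cre arrays. Dkk3, a family member whose link to Lrp receptors is less clear, stood at 2.71 and 3.08 against 2.74 and 3.19. Wif1 stood at 2.97 and 3.44 against 3.35 and 2.95. Dkk4 and Sfrp5 were below the limit. Sfrp2 and Sfrp4 are also made by fibroblasts. The 8 fibroblast markers averaged 6.72 and 7.19 in MMTV-Cre and 6.72 and 6.80 in wild-type, with 7 of 8 highest in MMTV-Cre replicate 2. The groups were apart in 4 of the 8, beside 33.1% of all genes tested. These were Col1a1, Col1a2, Col3a1 and Dpt, all higher in both MMTV-Cre arrays. The groups were also apart in 6 of the 9 general epithelial markers. Krt18, Cldn3, Cldn4 and Cldn7 were higher in MMTV-Cre, and Cdh1 and Krt8 were lower. The part of fibroblasts in the Sfrp2 and Sfrp4 values was not tested.

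**Figure D3:**
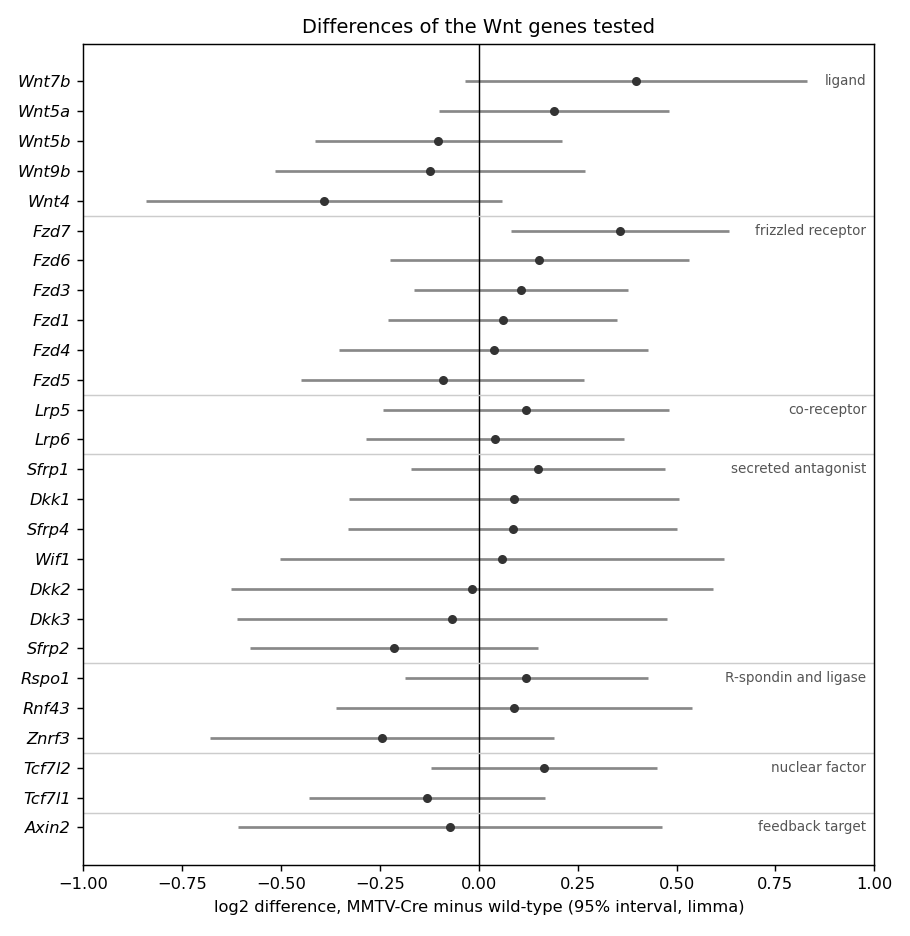
Log2 difference, MMTV-Cre minus wild-type, of the 26 Wnt genes tested, with 95% intervals from limma and genes ordered by role. Fzd7 is the single gene whose interval leaves out 0, and no gene passed the adjusted threshold.

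R-spondins raise the amount of Wnt receptor at the cell surface by drawing away Rnf43 and Znrf3, ligases that mark frizzled proteins for removal. Of these 6 genes 3 passed the filter. Rspo1, an R-spondin known to act in the mammary gland, measured 3.34 and 3.40 with the transgene, and 3.17 and 3.34 in wild-type, a difference of 0.12 (−0.19 to 0.43). Znrf3 stood at 3.48 and 3.83 against 3.79 and 4.01, a difference of −0.25 (−0.68 to 0.19), which became −0.066 without MMTV-Cre replicate 1 and −0.42 without MMTV-Cre replicate 2. Rnf43 stood at 3.04 and 3.44 against 3.25 and 3.05, a difference of 0.09 (−0.36 to 0.54). None of the 3 passed the test, and the groups overlapped for both ligases. Rspo2, Rspo3 and Rspo4 were below the limit, with values from 1.81 to 2.45.

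Of the 3 nuclear factors 2 passed the filter. Tcf7l2, a TCF factor of many epithelia, measured 6.37 and 6.29 with the transgene, and 6.21 and 6.13 in wild-type, a difference of 0.16 (−0.12 to 0.45). Tcf7l1, which mostly represses, stood at 3.29 and 3.45 against 3.49 and 3.51, a difference of −0.13 (−0.43 to 0.17). Both had groups apart, in opposite directions, and neither passed.

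Lef1, a factor of the mammary placode and also of T cells, measured 1.90 and 2.25 with the transgene, and 4.84 and 2.11 in wild-type. Wild-type replicate 1 was 2.59 log2 units above the next array, a gap that 11 of all 22180 genes (0.0496%) matched or passed. Its mean of 2.78 lay below the dim limit. With no filter the difference was −1.40 (−3.45 to 0.65, adjusted p by limma = 0.963), and without wild-type replicate 1 it was −0.04. All 7 T cell markers were highest in the same array. Cd3g stood at 6.63 there and at 2.71 or less in the others, and Lat at 6.05 against 3.88 or less. The 7 markers averaged 2.91 and 3.04 in MMTV-Cre and 5.90 and 3.09 in wild-type. The 4 B cell markers found were also highest there, at a mean of 4.30 against 2.70 to 2.76. Without that array, the Lef1 values of the other 3 spanned 1.90 to 2.25. The related T cell factor gene Tcf7 was not analysed here.

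**Figure D4:**
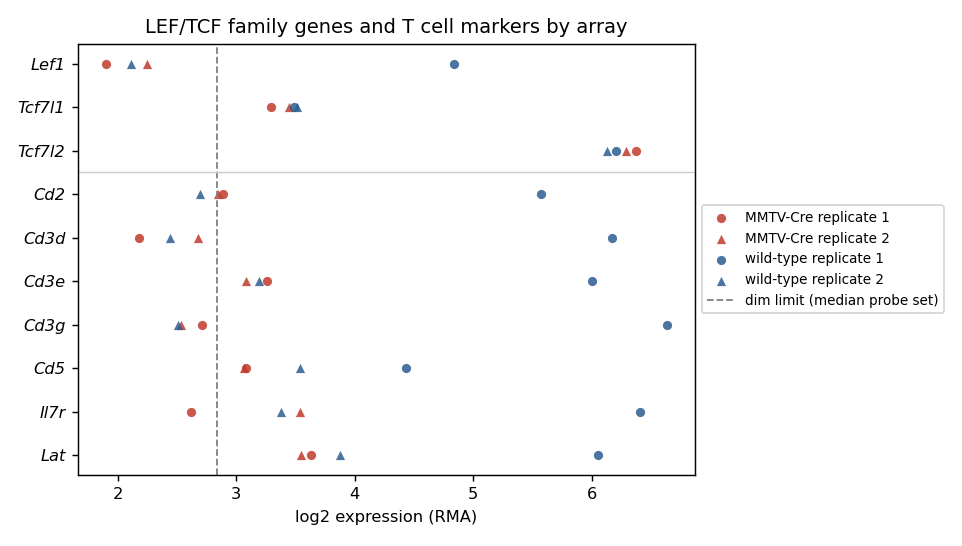
Log2 expression (RMA) of Lef1, Tcf7l1 and Tcf7l2 and of 7 T cell marker genes in the 4 arrays, with colours and shapes for group and replicate and a dashed line at the dim limit of 2.84. Lef1 and all 7 markers are highest in wild-type replicate 1, whereas Tcf7l1 and Tcf7l2 have their 4 arrays close together.

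Axin2, which beta-catenin and TCF factors switch on and which in turn dampens the signal, is widely read as a measure of the beta-catenin branch. It measured 2.65 and 3.22 with the transgene, and 2.99 and 3.03 in wild-type. The MMTV-Cre arrays lay on either side of the wild-type arrays, and MMTV-Cre replicate 1 was below the dim limit. The difference was −0.07 (−0.61 to 0.46, adjusted p by limma = 0.995), and it was 0.21 without MMTV-Cre replicate 1 and −0.36 without MMTV-Cre replicate 2. The second Axin2 probe set, with a mean of 2.80, differed by 0.25. The basal keratin gene Krt14 was also lowest in MMTV-Cre replicate 1, at 7.27 against 7.97 to 8.07. Of the 8 basal markers found 4 (Krt14, Krt17, Trp63 and Oxtr) were lowest in that array, and the other 4 were highest in it. Those 4 were Acta2 at 8.46, Myh11 at 7.54, Cnn1 at 6.34 and Mylk at 3.85, genes of the contractile apparatus. The mean of the 8 was 5.81 there and 5.81 to 5.91 in the others. Their part in the Axin2 values was not tested.

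Further genes of the pathway came from a list of 67, chosen by function, of which 64 were found and 48 passed the filter. None passed the test (smallest adjusted p by limma 0.964), and 1 had an unadjusted p under 0.05, beside 4.32% of all genes. The groups did not overlap in 19 of the 48 (39.6%), 12 higher and 7 lower in MMTV-Cre, beside 33.1%. Their median difference was 0.03.

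The gene with the smallest p was Ror2, a receptor of Wnt5a. It measured 3.44 and 3.49 with the transgene, and 2.85 and 3.09 in wild-type, with groups apart. The difference was 0.49 (0.16 to 0.83, unadjusted p = 0.0124, adjusted p = 0.964, limma), a fold of 1.41, and without any 1 array it lay between 0.37 and 0.61. The part of other cell types in the values of Ror2, Fzd7 and Wnt5a was not tested. The related receptor Ror1 stood at 3.41 and 3.44 against 3.18 and 3.27, a difference of 0.20 (−0.08 to 0.48). Of the 10 further receptors tested 6 had a difference above 0, beside 49.0% of all genes tested. The groups were apart in 4 (3 higher and 1 lower), or 40%, near the 33.1% of all genes. Of the 7 planar polarity genes found 4 were tested, all with differences above 0, from 0.15 to 0.22. Of the 3 below the dim limit, the fit with no filter gave −0.36 for Celsr1, which was lower in both MMTV-Cre arrays, −0.09 for Celsr3 and 0.13 for Vangl2.

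Beta-catenin itself, Ctnnb1, measured 6.62 and 6.73 with the transgene, and 6.56 and 6.52 in wild-type, a difference of 0.13. The Groucho-type co-repressor gene Tle4 differed by 0.28 (−0.05 to 0.61) and Tle3, of the same family, by −0.18 (−0.51 to 0.14). Cby1, which encodes a beta-catenin antagonist, differed by 0.29 (−0.12 to 0.71). Genes listed with the destruction complex, which breaks down beta-catenin, lay on both sides of 0, with 5 of 12 above it. The 12 mix components of the complex with other genes, among them its regulators Frat1, Frat2, Tnks and Tnks2. The count is therefore not one of components alone. Frat1, which encodes an inhibitor of the Gsk3 kinases, differed by −0.32 (−0.82 to 0.18), and stood at 4.28 in wild-type replicate 1 against 3.69 to 3.76 elsewhere.

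Among 8 genes known as targets of the pathway 6 were tested. The difference was above 0 in 1 of these and below 0 in 5, where 49.0% of all genes tested were above 0. Nkd1, a feedback inhibitor below the dim limit, went the other way and was higher in both MMTV-Cre arrays, at 1.98 and 2.07 against 1.72 or less in wild-type. With no filter it differed by 0.41 (0.08 to 0.75, unadjusted p = 0.0234, adjusted p by limma = 0.963). Bambi, which encodes a pseudoreceptor for TGF-beta, measured 3.75 and 3.53 with the transgene, and 4.07 and 3.85 in wild-type, a difference of −0.32 (−0.69 to 0.05). Both MMTV-Cre arrays were the lower. Nkd2, an inhibitor of dishevelled proteins, differed by −0.29 (−0.80 to 0.22) with overlapping groups. That difference was −0.037 without MMTV-Cre replicate 1 and −0.55 without MMTV-Cre replicate 2. Myc stood at 8.21 and 8.38 against 8.41 and 8.23, and Procr, a marker of multipotent mammary cells, differed by 0.14. Neither of these had groups apart. Among the 6 tested, groups were apart in 2 (33.3%), Bambi and Cd44, both lower in MMTV-Cre, beside 33.1% of all genes tested. Cd44 stood at 7.76 and 8.04 against 8.07 and 8.11. The targets therefore held no gene past the test in either direction.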

How the data were processed

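The authors deposited 1 log2 value for each probe set and array, 4 Affymetrix arrays in all, made with the oligo package and RMA per the submitters' processing notes. RMA subtracts background, forces the arrays to a like distribution and combines probes, so a shift shared by most transcripts is invisible. Versions and build were not given in the sources used here. The log2 scale was read from the range of the values. All 4 deposited columns were used. The platform annotation gave 23521 of 41345 probe sets a symbol of their own.

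Groups were compared in R 4.3.3 with limma 3.58.1 (lmFit, eBayes, two-sided, no trend), on the brightest probe set per gene with a mean at or above the dim limit, adjusted over all genes tested. The labels call samples biological replicates without saying how animals were pooled. The p-values set each difference against the spread between these samples, which limma takes partly from the gene and partly from all genes tested. Genes and lists were chosen with earlier results of these data known. Every Wnt gene above the dim limit is named. Intervals are given for up to 4 per role by smallest p, for Wnt4, Axin2, Lef1, Lrp5, Lrp6, Sfrp1, Rspo1 and Fzd7, and for 4 other pathway genes in each direction. Other genes named (Ctnnb1, Myc, Procr, Nkd1, Cd44, Frat2, Tnks, Tnks2, Celsr1, Celsr3, Vangl2, and Wnt genes below the limit) were chosen after their values were seen. Intervals outside this rule are those of Wnt1, Wnt2, Wnt10a and Nkd1. Alternatives were other filters, probe-set rules, normalizations and variance models, a replicate block, another threshold, and each array left out. The fit was tested on simulated data. The number of arrays limits the precision. Gene order and promoters came from RefSeq.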

Additional observations from a re-analysis of the deposited data

How the results depend on the processing

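No alternative that kept all 4 arrays and an adjusted p called any gene, so the counts of 0 among the 26 Wnt genes, the 48 other pathway genes and all 11668 genes stayed at 0. At an unadjusted p under 0.05 the counts were 1, 1 and 504. Without 1 array each, all genes gave 0 to 13 calls, the 13 without wild-type replicate 2 and none of them a Wnt gene or another pathway gene, and a group of 1 array is there assumed to vary like the other. The replicate numbers do not pair the samples by the labels, and the deviations of same-numbered samples correlated at −0.0389 across genes. With the replicate number as a block 0 genes were called. The median difference of the Wnt genes was −0.050 to 0.12 without 1 array each. Of the 26 Wnt genes tested, 12 changed sign in some fit without 1 array and 14 did not. Over these, Lef1 and the 8 other pathway genes given intervals by the rule, 23 of 35 kept their sign in every alternative that gave a value, and no call changed. Fits that changed only the filter, the variance model or the block leave each difference as it was and could not change a sign. Leaving out 1 array could not do so either where the groups did not overlap, as in 10 of the 26 Wnt genes. With probe sets averaged per gene, Axin2 was 0.091 and Lrp6 −0.022, and Lrp6 was −0.086 by its other probe set. Dkk2 was 0.012 with quantile normalization and 0.0062 with median centring. Without 1 array each, differences ran from −0.36 to 0.21 (Axin2), −0.062 to 0.24 (Dkk1), −0.36 to 0.32 (Dkk2), −0.29 to 0.16 (Dkk3), −0.089 to 0.16 (Fzd4), −0.22 to 0.041 (Fzd5), −0.0086 to 0.25 (Lrp5), −0.059 to 0.14 (Lrp6), −0.11 to 0.29 (Rnf43), −0.11 to 0.28 (Sfrp4), −0.17 to 0.29 (Wif1) and −0.29 to 0.048 (Wnt9b). The cause was not tested. The Fzd7 interval included 0 with a variance trend (−0.016 to 0.73) and without MMTV-Cre replicate 1, wild-type replicate 1 or wild-type replicate 2. The stricter filter left 5 Wnt genes and neither Fzd7 nor Wnt4. Quantile normalization and median centring gave Fzd7 differences of 0.39 and 0.38. Low signal limits what can be read from the 24 genes below the dim limit. Of the 26 tested, 22 were at or above the limit in every array, and Wnt4, Axin2, Dkk1 and Dkk3 were not.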
